A study of Mus musculus with 10 samples.

Results

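The genes described here are 40 genes of glucose use: carriers of glucose and lactate, enzymes of glycolysis, enzymes of glycogen turnover, enzymes of the pentose phosphate pathway, and Fbp1 of gluconeogenesis. They were compared between 5 arrays of WT and 5 arrays of Rac2-/- bone marrow derived macrophages (BMDMs). Each gene was read on the array feature that the platform annotation gives to that gene alone, and where a gene had several such features on the one with the highest mean over the 10 arrays. By this rule 36 of the 40 genes were measured, of 34760 features on the array. Gapdh was represented only by features shared with other symbols, and features for Gpi1, Eno1 and G6pdx were not named in the annotation used here. Of the 36, 35 passed the filter on low values and were tested. Fbp1 did not, with means of 4.53 in WT and 4.60 in Rac2-/- on the log2 scale.

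Rac2 is a small GTPase of blood cells that acts in the assembly of the NADPH oxidase and in cell movement. BMDMs are macrophages grown from bone marrow in MCSF, their main growth and survival factor. Marrow came from male C57BL mice per the labels, which the methods give as C57BL/6J littermates, either WT or carrying a homozygous Rac2 deletion in all cells. Both groups received MCSF at 50 ng/ml for 7 days in medium with 20% FBS and 16% oxygen, were cultured for 8 days, and were over 80% Mac1 positive per the labels. A legend of the study gives mice as the n of each group, equal to the number of arrays, but the labels tie no array to a mouse. The p-values therefore rest on array-to-array spread, part of which may be technical.

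Glycolysis splits glucose into pyruvate, with ATP and NADH as products, and lactate dehydrogenase regenerates NAD from NADH by turning pyruvate into lactate. The pentose phosphate pathway branches off at glucose 6-phosphate and supplies NADPH, which the macrophage NADPH oxidase uses, and ribose for nucleotides, while glycogen stores glucose for later release. Several steps have isoenzymes, products of separate genes that catalyse the same reaction, and many of these genes are induced under low oxygen by HIF-1, a transcription factor whose oxygen-regulated subunit is Hif1a.

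The Rac2 feature itself read 12.10 ± 0.27 in WT and 7.10 ± 0.29 in Rac2-/- (SD, n = 5 each), as the labels imply. Arrays 1 and 2 stood apart from arrays 3 to 5 in both groups, with correlations of 0.974 to 0.996 within these sets and 0.934 to 0.955 between them. Differences were therefore also read within each set, and these values are given for some of the genes. In each group arrays 3 and 4 lay close together. The SD of their difference over all tested features was 0.187 and 0.243, against 0.230 to 0.398 for the other pairs of arrays of the same group and set. Whether they share a culture is not stated, so results past a test over all arrays are also given with arrays 3 and 4 averaged and counted as 1 array. The mean level of 10 macrophage markers was 11.87 to 12.05 in WT and 11.91 to 12.10 in Rac2-/-, from Mertk to Lyz2 with group means of 10.64 to 13.14. Of these 10 markers 7 had the higher mean in Rac2-/- and 3 in WT. Mrc1 alone passed limma, as higher in Rac2-/-, against 0.795% of all features. With the replicate number as a block 2 passed as higher in Rac2-/- and 1 as higher in WT, against 3.32% and 3.03% of all features. At an unadjusted limma p under 0.05 there were 2 in each direction, against 5.06% of all features toward Rac2-/- and 5.3% toward WT. Mast cell and basophil markers were low in both groups. Their means over 8 genes did not overlap, at 4.96 to 5.57 in WT and 4.74 to 4.91 in Rac2-/-. All 5 that passed the filter had the higher mean in WT, and 0 passed limma. At an unadjusted limma p under 0.05 there were 4 higher in WT, against 5.3% of all features. Taken singly, 0 of the 5 separated the groups with WT above, against 2.34%. Handling genes, induced early by stress, also had means that did not overlap, over 9 genes at 8.32 to 8.45 in WT and 7.78 to 8.31 in Rac2-/-. Of these 9, 7 had the higher mean in WT and 2 in Rac2-/-. Hspa1a alone passed limma, as higher in WT, against 1.11% of all features. The groups lay apart for 3 of the 9, with WT above, against 2.34%. Of 6 dendritic cell markers Itgax passed as higher in Rac2-/- and Ccr7 as higher in WT, against 0.795% and 1.11% of all features. With an unadjusted limma p under 0.05 there were 1 higher in Rac2-/- and 3 higher in WT, against 5.06% and 5.3%. The part of these genes in the results below was not tested. In whole cultures, fewer cells of a type and less RNA per cell cannot be told apart.

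Most of these genes read higher in Rac2-/- BMDMs, by small amounts. The mean was higher in Rac2-/- for 28 of the 35 tested genes and higher in WT for 7, while 49.9% of all tested features had the higher mean in Rac2-/-. The genes were listed with earlier results of these data known, and the study had picked some of them on the same arrays. Counts of these genes beside shares of all features are therefore a description and no test of the list. The median log2 difference, WT minus Rac2-/-, was -0.21 over the 35 genes and 0.000341 over all features. It was -0.20 in arrays 1 and 2 and -0.21 in arrays 3 to 5. All arrays of Rac2-/- lay above all arrays of WT for 4 genes, Slc2a1, Aldoc, Ldhb and Pgd, against 2.18% of all features. No gene (0 of 35) had WT above Rac2-/- without overlap, against 2.34%.

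With limma and Benjamini-Hochberg adjustment over all features, 2 of the 35 genes passed a threshold of 0.05. They were the aldolase Aldoc and the lactate dehydrogenase subunit Ldhb, both higher in Rac2-/-, a direction in which 0.795% of all features passed. None (0) passed as higher in WT, where 1.11% of features did. At an unadjusted limma p under 0.05 the counts were 10 and 0, against 5.06% and 5.3% of all features. Deviations from the group means correlated at 0.493 to 0.716 between same-numbered WT and Rac2-/- arrays. Between other numbers of the same set they correlated at 0.476 to 0.724, so the values show the array set but no pairing by number. With the replicate number as a block in limma 8 genes passed, all higher in Rac2-/-, against 3.32% of features. These were Slc2a1, Pfkl, Aldoc, Pgk1, Ldhb, Pygl, Gbe1 and Tkt. In the other direction 0 passed with the block against 3.03% of features, and at an unadjusted p under 0.05 there were 18 genes higher in Rac2-/- and 4 higher in WT, against 11.5% and 10% of features. With a term for arrays 1 and 2 against arrays 3 to 5, 13 genes passed as higher in Rac2-/- and 1, Hk3, as higher in WT, against 4.98% and 4.36% of features. After ComBat on these sets 16 passed as higher in Rac2-/- and 3, Slc2a6, Hk3 and Pfkp, as higher in WT. Of all features 4386 passed after ComBat in either direction, against 514 by limma without it. Their split by direction is not given, so the 16 and the 3 have no share of all features beside them. With arrays 3 and 4 averaged Aldoc alone passed, both without and with the block. The other 7 genes past the test with the block then had limma adjusted p-values of 0.0660 to 0.149 with it.

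**Figure D1:**
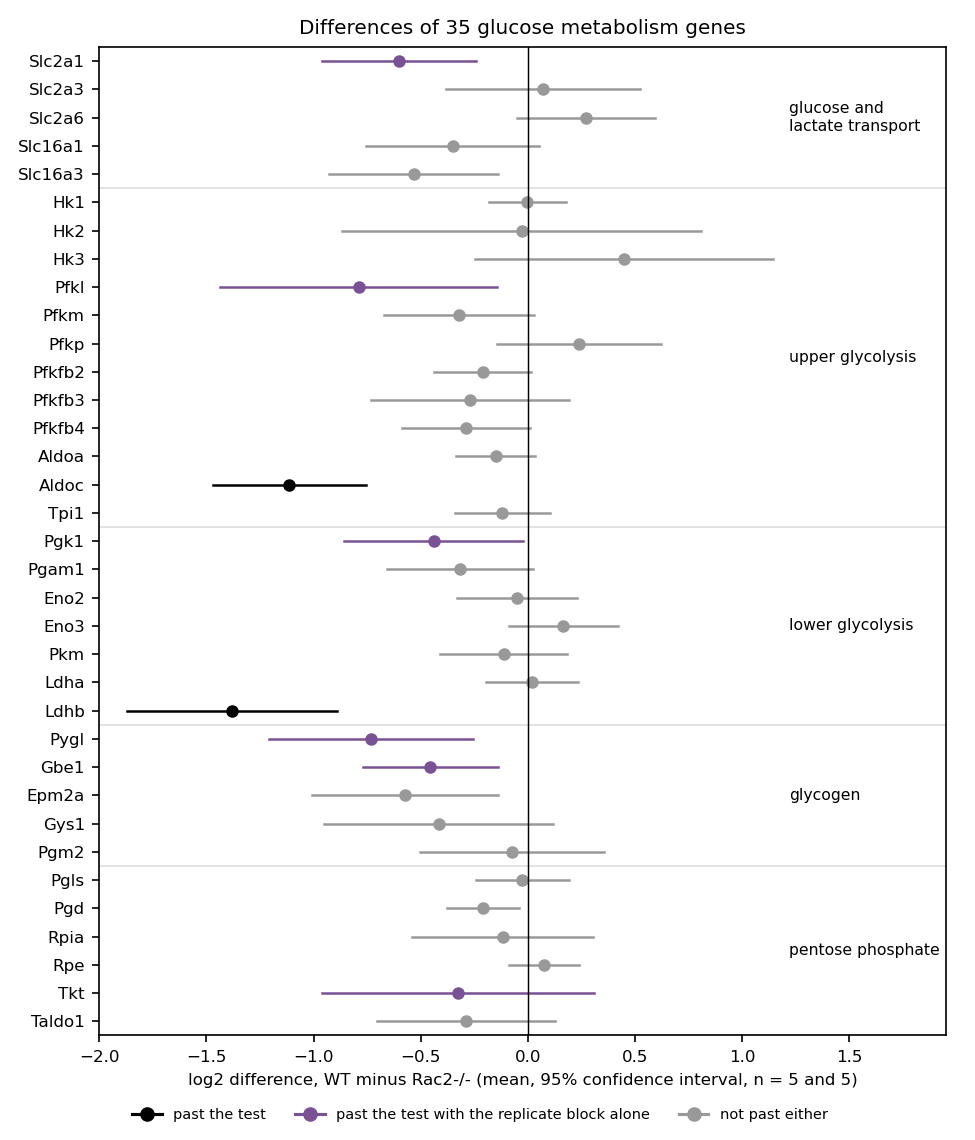
Difference in log2 level, WT minus Rac2-/-, for the 35 tested genes grouped by branch, with 95% confidence intervals from limma without a block; black marks genes past the test, purple those past it with the replicate block alone, and grey the others. Points left of 0 read higher in Rac2-/-, which holds for 28 genes, and Ldhb and Aldoc lie farthest left at -1.38 and -1.11.

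Aldolase splits fructose 1,6-bisphosphate, and of its isoenzymes Aldoa is the muscle and general form and Aldoc the form best known from brain. Aldoc read 8.70, 8.58, 8.63, 8.72 and 8.98 in WT arrays 1 to 5 and 10.09, 9.78, 9.48, 9.53 and 10.28 in Rac2-/- arrays 1 to 5. The groups did not overlap, and the lowest Rac2-/- array was array 3. The level was 2.16-fold higher in Rac2-/-, with a log2 difference of -1.11 (SE 0.16) and a limma adjusted p of 0.00719. The difference was -1.30 within arrays 1 and 2 and -0.99 within arrays 3 to 5. With arrays 3 and 4 averaged it was -1.18 with an adjusted p of 0.0459, and 0.0204 with the block. Aldoa, in contrast, read 12.42 ± 0.10 in WT and 12.57 ± 0.11 in Rac2-/- (SD, n = 5), a difference of -0.15 with a 95% interval of -0.33 to 0.03 and a limma adjusted p of 0.643.

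Lactate dehydrogenase is a tetramer of A and B subunits, and Ldhb encodes the B subunit, the heart form, which is classically tied to the oxidation of lactate. Ldhb read 6.96, 6.81, 7.10, 7.08 and 6.86 in WT and 7.41, 8.59, 8.62, 8.51 and 8.58 in Rac2-/- arrays 1 to 5. The groups did not overlap, and Rac2-/- array 1 lay well below the other Rac2-/- arrays. The level was 2.60-fold higher in Rac2-/-, with a log2 difference of -1.38 (SE 0.22) and a limma adjusted p of 0.0122. The difference was -1.11 within arrays 1 and 2 and -1.56 within arrays 3 to 5. With arrays 3 and 4 averaged the difference was -1.36 and the adjusted p 0.102, and 0.0683 with the block. The neighbours of this feature in the platform order lay mostly on chromosome 19 (9 of 10), while the gene lies on chromosome 6. The other Ldhb feature, with neighbours on chromosome 6, read 6.21, 6.77, 6.93, 6.95 and 6.78 in WT and 7.32, 8.23, 8.27, 8.08 and 8.12 in Rac2-/-. Its groups did not overlap either, with a 2.42-fold higher level in Rac2-/- and a limma adjusted p of 0.0121.

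Ldha, the A subunit of muscle and of most glycolytic cells, read 12.42, 12.30, 12.14, 12.16 and 12.02 in WT and 12.10, 12.40, 12.18, 12.13 and 12.14 in Rac2-/-. The groups overlapped over nearly their whole range. The log2 difference was 0.02, with a 95% interval of -0.20 to 0.24, and turned to -0.04 within arrays 3 to 5.

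**Figure D2:**
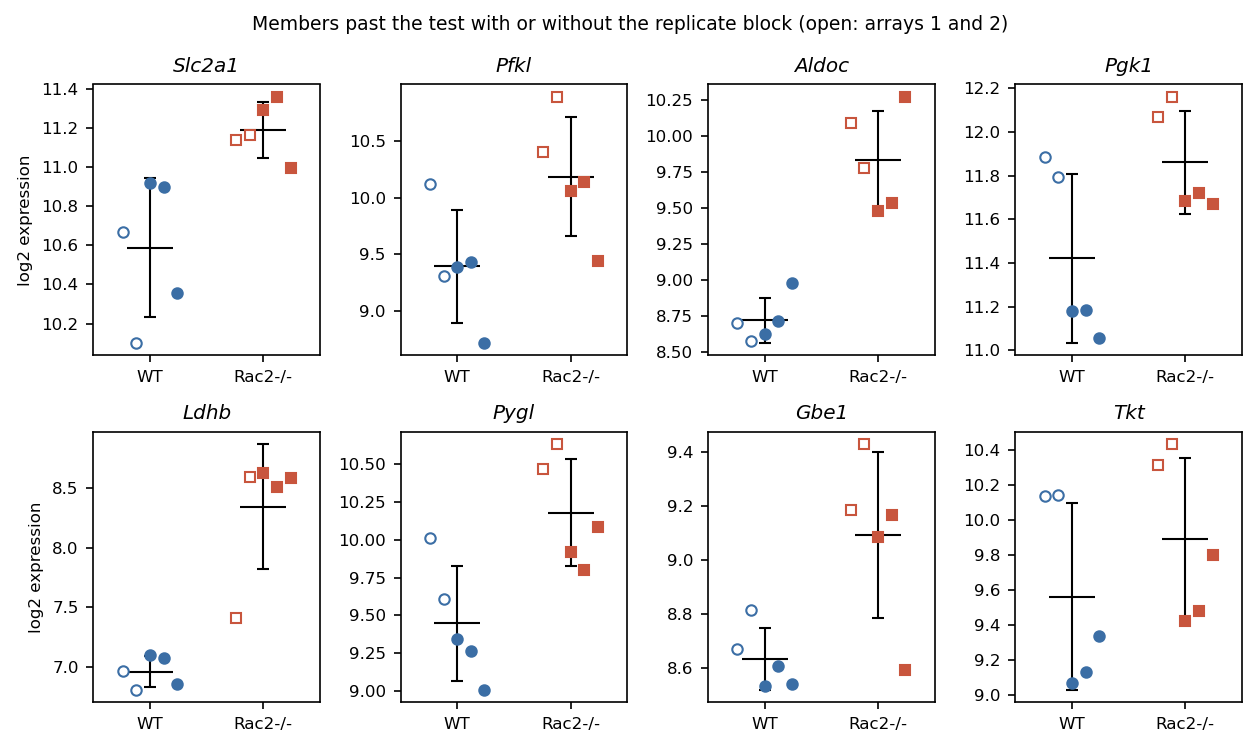
Log2 level of 8 genes in each array of WT and Rac2-/-, with the group mean and SD; open symbols mark arrays 1 and 2. Aldoc, Ldhb and Slc2a1 separate the groups without overlap, and Pfkl, Pgk1 and Tkt move with the array set as well as with the genotype.

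Promoters of these isoenzymes are printed because the 2 genes past the test each have a sister gene that did not pass it, and that of Pgk1 as a classical hypoxia-induced gene. Each run is the 250 bases before a RefSeq transcription start in GRCm38.p6, 5′ to 3′ on the gene's strand. Capitals mark the core letters ACGTG or GCGTG, or their reverse complements, both of which HIF-1 can bind; ACGTG also lies within the E-box CACGTG.
Aldoc, chr11:78322823-78323072, plus strand: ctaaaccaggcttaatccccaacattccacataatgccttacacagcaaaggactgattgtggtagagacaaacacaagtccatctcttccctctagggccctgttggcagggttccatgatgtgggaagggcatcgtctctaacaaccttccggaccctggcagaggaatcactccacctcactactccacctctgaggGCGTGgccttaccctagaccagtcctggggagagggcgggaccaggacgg
Aldoa, chr7:126799255-126799504, minus strand: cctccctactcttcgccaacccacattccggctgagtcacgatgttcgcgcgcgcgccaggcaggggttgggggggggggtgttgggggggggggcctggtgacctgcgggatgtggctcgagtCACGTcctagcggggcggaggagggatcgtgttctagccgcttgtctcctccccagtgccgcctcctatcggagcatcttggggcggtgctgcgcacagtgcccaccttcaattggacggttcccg
Ldhb, chr6:142507958-142508207, minus strand: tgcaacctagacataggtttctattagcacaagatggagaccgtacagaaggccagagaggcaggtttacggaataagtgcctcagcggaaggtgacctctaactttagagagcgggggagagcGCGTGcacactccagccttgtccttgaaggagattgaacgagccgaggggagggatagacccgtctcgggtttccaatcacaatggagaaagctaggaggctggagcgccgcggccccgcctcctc
Ldha, chr7:46845554-46845803, plus strand: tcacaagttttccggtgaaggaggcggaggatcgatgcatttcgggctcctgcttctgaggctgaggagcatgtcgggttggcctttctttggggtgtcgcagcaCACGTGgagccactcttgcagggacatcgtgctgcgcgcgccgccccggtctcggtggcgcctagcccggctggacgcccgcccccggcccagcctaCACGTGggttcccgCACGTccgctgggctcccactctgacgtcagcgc
Pgk1, chrX:106186850-106187099, plus strand: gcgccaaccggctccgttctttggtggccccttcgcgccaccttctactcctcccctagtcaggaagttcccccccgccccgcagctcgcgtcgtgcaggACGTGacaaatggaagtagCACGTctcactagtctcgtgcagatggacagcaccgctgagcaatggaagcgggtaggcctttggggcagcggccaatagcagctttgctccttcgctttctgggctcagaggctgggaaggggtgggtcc

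In these windows Aldoc and Ldhb held 1 match to GCGTG each and none to ACGTG (0). Aldoa held 1 match to ACGTG, Pgk1 held 2 and Ldha held 5, counting both strands, so that a CACGTG counts on each. Aldoa has other annotated starts, as do Aldoc and Ldha, and the counts depend on the start. The other Ldha start held 0 matches to ACGTG and 1 to GCGTG, as Ldhb did. Another Aldoa start held neither. Over 54 promoters of 39 of the 40 genes, 77.8% held either set of letters, against 38.6% of all 32851 promoters of that length. These genes' promoters also had more CG dinucleotides, with a median of 13.5 against 6 over all promoters. A match is a description of letters and does not show binding.

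Isoenzymes were then compared within each array, as the level of one minus the level of the other, which cancels a shift that both share. An exact two-sided permutation test over all splits of the 10 arrays into 2 groups of 5 was run for 16 pairs, with p-values adjusted over the 16, and its smallest possible p is 0.00794. The difference between isoenzymes changed with genotype in 5 pairs. Relative to Aldoa, Aldoc was higher in Rac2-/- by 0.96 on the log2 scale (SE 0.19). Relative to Ldha, Ldhb was higher by 1.40 (SE 0.24), and by 1.29 on the Ldhb feature with neighbours on its own chromosome. Ldha with Ldhb passed in 5 of the 10 tests that left out 1 array, and not without any single WT array. Aldoa with Aldoc failed only without WT array 5. With 1 array left out there are fewer splits. A pass after adjustment then depends on how many of the 16 pairs reach the lowest p-values. A pass lost there therefore does not show that a difference rests on the array left out. Over all 10 arrays the groups did not overlap for Ldha with Ldhb or for Aldoa with Aldoc. Each of the 5 pairs had the smallest possible exact permutation p, 0.00794, with an adjusted p of 0.0254.

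The other 3 pairs concerned glucose carriers and phosphofructokinases. Slc2a1 minus Slc2a3 differed by -0.67 (SE 0.15), and by -0.88 and -0.53 within arrays 1 and 2 and arrays 3 to 5. Slc2a1 minus Slc2a6 differed by -0.87 (SE 0.17), and by -0.84 and -0.90 within those sets. Pfkm minus Pfkp differed by -0.56 (SE 0.12), so Pfkm was the higher of this pair in Rac2-/- relative to WT. Slc2a1 with Slc2a3 did not pass without WT array 5 or without any of Rac2-/- arrays 1 to 4. Slc2a1 with Slc2a6 failed only without WT array 5. Pfkm with Pfkp did not pass without WT array 1, 2, 4 or 5. The limit given above for tests with 1 array left out holds here too. A sixth pair, Pfkl minus Pfkp, differed by -1.03 with an exact permutation p of 0.0238 and an adjusted p of 0.0635.

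Pairs within the hexokinases, the bifunctional Pfkfb enzymes, the enolases and the lactate carriers did not pass. Hk1 minus Hk3 differed by -0.45 and Hk2 minus Hk3 by -0.47, with adjusted exact permutation p-values of 0.268 and 0.206. Hk1 minus Hk2 differed by 0.03. On the Hk1 feature of its own chromosome, Hk1 minus Hk3 differed by -0.33 and Hk1 minus Hk2 by 0.14. Eno2 minus Eno3 differed by -0.22 and Slc16a1 minus Slc16a3 by 0.18. The pairs among Pfkfb2, Pfkfb3 and Pfkfb4 differed by 0.02 to 0.08. With the replicate block, 9 pairs passed, adding Hk1 with Hk3, Hk2 with Hk3, Pfkl with Pfkm and Pfkl with Pfkp. Exchanging genotypes only within a replicate number allows too few splits for any p under 0.05. These 9 thus do not come from an exact test within replicate numbers, and are not comparable with the count without the block. With arrays 3 and 4 averaged the smallest possible exact permutation p is 0.0286 and 0 pairs passed, the lowest adjusted p being 0.0914. After adjustment over 16 pairs a pass would there need most of the pairs at that smallest p. This count therefore cannot tell whether the pairs depend on counting arrays 3 and 4 separately. Without WT array 5 also 0 pairs passed.

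**Figure D3:**
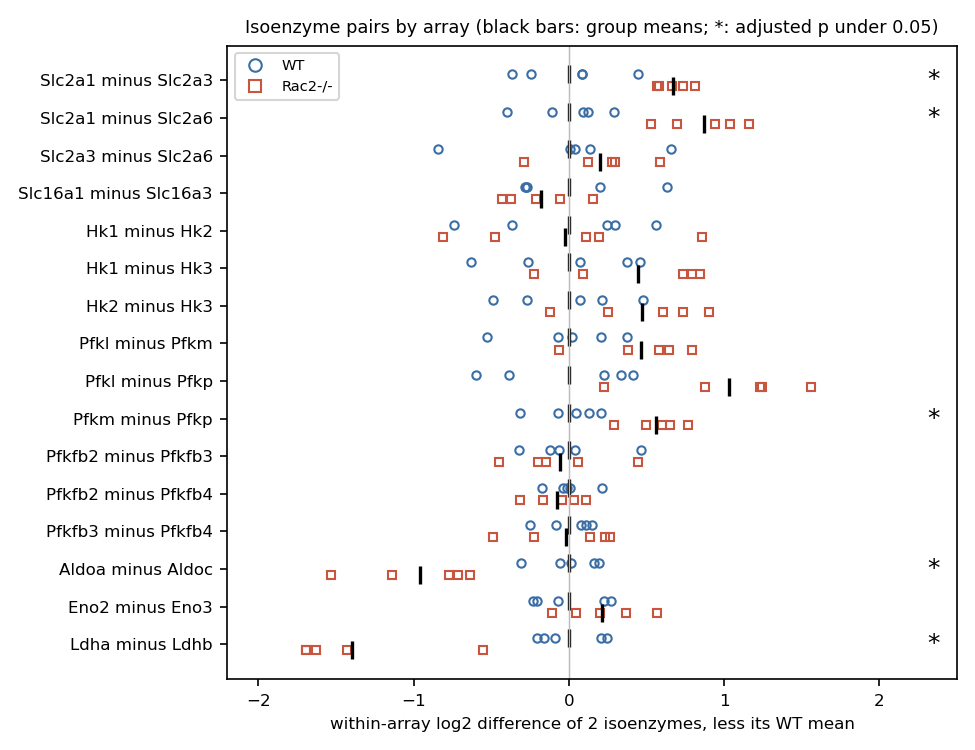
Difference in log2 level between 2 isoenzymes within each array, minus the WT mean of that difference, for 16 pairs; bars are group means and stars mark the 5 pairs with an adjusted exact permutation p under 0.05. The Rac2-/- arrays lie away from 0 for Ldha with Ldhb and Aldoa with Aldoc, by 1.40 and 0.96.

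The glucose carrier Slc2a1 (GLUT1), the main route of glucose into activated macrophages, read 10.67, 10.10, 10.92, 10.90 and 10.36 in WT and 11.14, 11.16, 11.29, 11.36 and 10.99 in Rac2-/-. The groups did not overlap, and WT arrays 2 and 5 were the lowest. The level was 1.52-fold higher in Rac2-/-, with a log2 difference of -0.60 (SE 0.16), a limma adjusted p of 0.117 and, with the replicate block, of 0.0264, which became 0.0816 with arrays 3 and 4 averaged. Slc2a3 (GLUT3), of high affinity, read 7.23 ± 0.45 in WT and 7.16 ± 0.19 in Rac2-/- (SD, n = 5). Slc2a6, a carrier of the lysosome membrane, read 11.29 ± 0.28 in WT and 11.02 ± 0.19 in Rac2-/-, a difference of 0.27 with a 95% interval of -0.05 to 0.59. Within arrays 3 to 5 alone Slc2a6 passed the test as higher in WT, with a difference of 0.41 and a limma adjusted p of 0.0253.

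Of the lactate carriers, Slc16a3 (MCT4), the exporter of glycolytic cells, read 10.16, 9.56, 10.16, 10.13 and 9.56 in WT and 10.30, 10.70, 10.62, 10.58 and 10.04 in Rac2-/-. It was higher in Rac2-/- in all 5 number pairs, but the groups overlapped and the limma adjusted p was 0.235, or 0.0735 with the block. Slc16a1 (MCT1) differed by -0.35, with a limma adjusted p of 0.603. Neutrophil markers were also low in WT arrays 2 and 5, with a mean log2 level over 8 genes of 7.10 and 6.94 there and 9.04 to 9.21 in the other WT arrays. In Rac2-/- it was 6.68 to 8.55, and 0 of the 8 markers passed limma, 0 at an unadjusted p under 0.05. Their part in these values was not tested.

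Hexokinases trap glucose in the cell as glucose 6-phosphate. Hk2 read 9.00 ± 0.64 in WT and 9.03 ± 0.69 in Rac2-/- (SD, n = 5), and its values were 1.13 higher in arrays 1 and 2 than in arrays 3 to 5. Hk3, the form of blood cells, was the tested gene with the largest difference toward WT. It read 10.24, 10.75, 9.46, 9.42 and 9.73 in WT and 10.17, 9.90, 9.08, 9.04 and 9.16 in Rac2-/-, higher in WT in 5 of 5 number pairs with overlapping groups. The log2 difference was 0.45, the limma adjusted p 0.823, and with the block 0.0694. With the batch term Hk3 passed as higher in WT (limma adjusted p 0.0293), as it did after ComBat (0.00641). Hk1 differed by -0.0023 on a feature whose 10 neighbours lay on chromosome 14, and by 0.11 on the feature with neighbours on its own chromosome 10.

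Phosphofructokinase commits the sugar to glycolysis, with liver, muscle and platelet subunits encoded by Pfkl, Pfkm and Pfkp. Pfkl read 10.12, 9.31, 9.39, 9.44 and 8.72 in WT and 10.40, 10.89, 10.06, 10.14 and 9.44 in Rac2-/-. Every Rac2-/- array lay above the WT array of its number, but the groups overlapped. The level was 1.73-fold higher in Rac2-/-, with a log2 difference of -0.79 (SE 0.29), a limma adjusted p of 0.306 and, with the block, of 0.0459, which became 0.139 with arrays 3 and 4 averaged. Pfkm differed by -0.32 and Pfkp by 0.24, in opposite directions and each in 5 of 5 number pairs, with limma adjusted p-values of 0.550 and 0.834. The Pfkfb enzymes set the level of fructose 2,6-bisphosphate, which activates phosphofructokinase. Pfkfb2, Pfkfb3 and Pfkfb4 differed by -0.21, -0.27 and -0.29, none past the test.

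Among the later steps, Pgk1, which makes the first ATP of the pathway's second stage, read 11.89, 11.79, 11.18, 11.19 and 11.06 in WT and 12.07, 12.16, 11.68, 11.72 and 11.67 in Rac2-/-. Arrays 1 and 2 were higher in both groups, and every Rac2-/- array lay above the WT array of its number. The level was 1.36-fold higher in Rac2-/-, with a log2 difference of -0.44 (SE 0.19), a limma adjusted p of 0.437 and, with the block, of 0.0259, which became 0.110 with arrays 3 and 4 averaged. Triose phosphate isomerase Tpi1 differed by -0.12 and pyruvate kinase Pkm, which makes pyruvate, by -0.11. The mutase Pgam1 differed by -0.32, on a feature with 9 of 10 neighbours on chromosome 7 while the gene lies on chromosome 19. The enolases Eno2 and Eno3 differed by -0.05 and 0.16.

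All 5 glycogen genes had the higher mean in Rac2-/-, with a median difference of -0.46, and none passed limma without the block. Pygl, the liver form of glycogen phosphorylase, which releases glucose 1-phosphate from glycogen, read 10.01, 9.61, 9.35, 9.26 and 9.01 in WT and 10.47, 10.63, 9.92, 9.80 and 10.09 in Rac2-/-. The groups overlapped only through WT array 1, and the level was 1.66-fold higher in Rac2-/-. The log2 difference was -0.73 (SE 0.21), the limma adjusted p 0.158 and, with the block, 0.0175, which became 0.0660 with arrays 3 and 4 averaged. Gbe1, the branching enzyme of glycogen synthesis, read 8.67, 8.82, 8.54, 8.61 and 8.54 in WT and 9.18, 9.43, 9.08, 9.17 and 8.59 in Rac2-/-. Rac2-/- array 5 alone fell within the WT range. The log2 difference was -0.46 (SE 0.14), with a limma adjusted p of 0.191, and of 0.0404 with the block, which became 0.149 with arrays 3 and 4 averaged.

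Epm2a, the glycogen phosphatase laforin, differed by -0.57, with a limma adjusted p of 0.255 and, with the block, of 0.0604. Glycogen synthase Gys1 differed by -0.42 and Pgm2 by -0.08. Rac2-/- array 5 also stood apart in cycling cell genes. Their mean log2 level over 14 genes was 9.93 there, 7.35 to 7.82 in the other Rac2-/- arrays and 6.99 to 7.74 in WT. Of these 14 genes 13 had the higher mean in Rac2-/- and 1 in WT. Their median difference was -0.59, and -0.23 within arrays 1 and 2, but 0 passed limma and 0 had an unadjusted p under 0.05. The part of dividing cells in the glycogen values was not tested. Without Rac2-/- array 5 Gbe1 passed limma, with an adjusted p of 0.0207.

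In the pentose phosphate pathway differences were smaller, with a median of -0.16 over 6 genes. Pgd, whose reaction releases NADPH, read 11.76, 11.68, 11.67, 11.64 and 11.50 in WT and 11.88, 11.90, 11.76, 11.79 and 11.96 in Rac2-/-. These groups lay apart by a narrow margin between WT array 1 and Rac2-/- array 3. The log2 difference was -0.21 (SE 0.08), with a limma adjusted p of 0.292. Transketolase Tkt, of the non-oxidative branch, read 10.13, 10.14, 9.07, 9.13 and 9.34 in WT and 10.31, 10.43, 9.42, 9.48 and 9.80 in Rac2-/-. Its arrays 1 and 2 were 0.88 above arrays 3 to 5, more than the difference between genotypes of -0.33. The limma adjusted p was 0.909 and, with the block, 0.0328, which became 0.127 with arrays 3 and 4 averaged.

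Taldo1, the transaldolase, differed by -0.29, with a limma adjusted p of 0.773 and, with the block, of 0.0565. The remaining enzymes Pgls, Rpia and Rpe differed by -0.03, -0.12 and 0.07. Over the branches, the median difference was -0.35 for 5 carriers, -0.18 for 12 genes of upper glycolysis, -0.11 for 7 of lower glycolysis, -0.46 for glycogen and -0.16 for the pentose phosphate pathway.

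**Figure D4:**
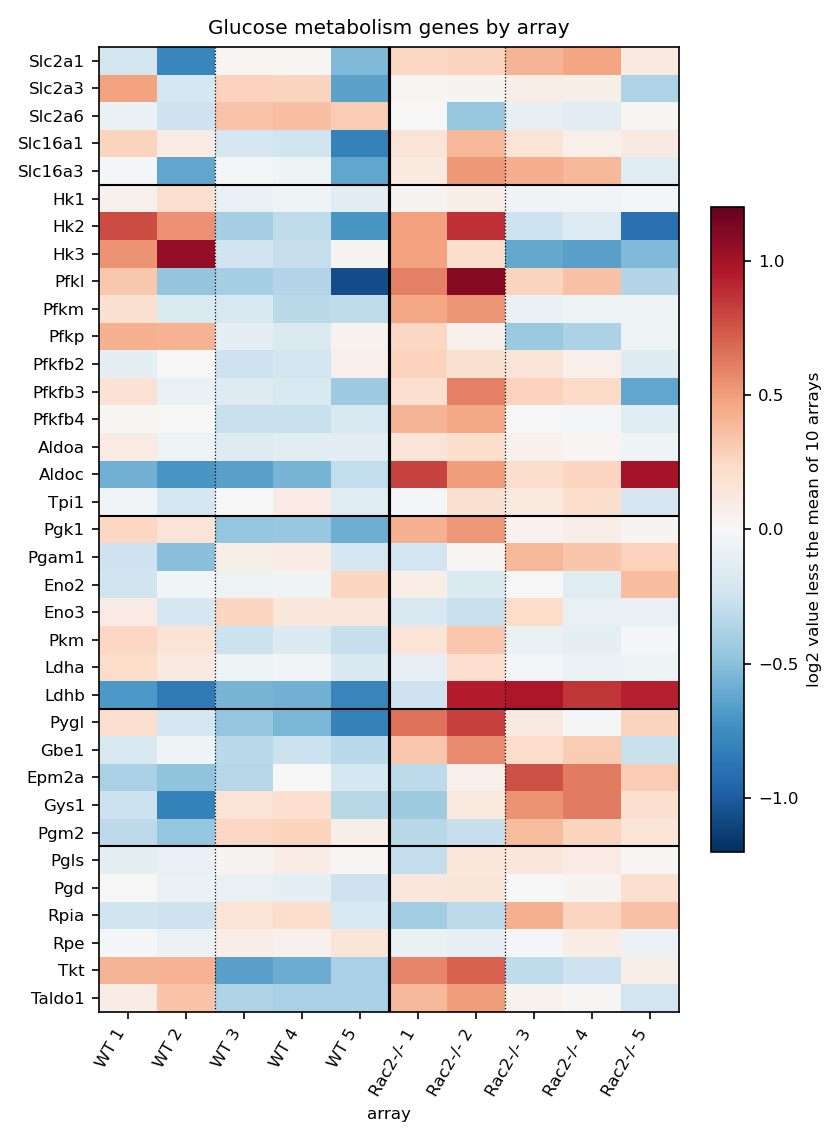
Log2 level minus the mean of the 10 arrays for the tested genes, in rows by branch and with arrays in columns, on a colour scale limited to 1.2 either way. Aldoc and Ldhb change between the genotypes, whereas Hk2, Hk3 and Tkt change mainly between arrays 1 and 2 and arrays 3 to 5.

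Further genes of the same pathways were read as a background to the 35. Of 64 tested, 37 had the higher mean in Rac2-/- and 27 in WT, with a median difference of -0.01. In each direction 1 passed limma, against 0.795% of all features as higher in Rac2-/- and 1.11% as higher in WT. Pgm2l1, which makes glucose 1,6-bisphosphate, was 1.79-fold higher in Rac2-/- (log2 difference -0.84, SE 0.15, limma adjusted p 0.0235). Minpp1, a phosphatase that can also act on 2,3-bisphosphoglycerate, was 1.30-fold higher in WT (0.37, SE 0.07, limma adjusted p 0.0298). With the block 2 of the 64 passed in each direction, near the 3.32% and 3.03% of all features. This added Pcx, the pyruvate carboxylase, 1.39-fold higher in Rac2-/- (limma adjusted p 0.134, with the block 0.0485). The ADP-dependent glucokinase Adpgk was 1.28-fold higher in WT (0.149, with the block 0.0409). None of these 4 genes passed with arrays 3 and 4 averaged, the limma adjusted p with the block being 0.0749 to 0.115. Among 21 other glycogen genes 17 had the higher mean in Rac2-/-, and among 28 other glycolysis and hexose genes 10 did.

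Of 13 regulators of glucose metabolism, 6 had the higher mean in Rac2-/- and 7 in WT, with a median difference of 0.0079. None (0) passed limma. The 2 with an unadjusted p under 0.05, Hif1a and Arrdc4, were higher in Rac2-/- (5.06% of all features) and passed with the block (3.32%). Hif1a read 10.82, 10.16, 11.22, 11.16 and 10.60 in WT and 11.12, 11.51, 11.78, 11.78 and 11.33 in Rac2-/-. It was 1.64-fold higher in Rac2-/-, with a limma adjusted p of 0.172 and, with the block, of 0.0378. Arrdc4, a relative of the glucose uptake inhibitor Txnip, was 1.24-fold higher, with adjusted p-values of 0.125 and 0.0368. With arrays 3 and 4 averaged the values with the block were 0.118 for Hif1a and 0.120 for Arrdc4.

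Hypoxia response genes outside glucose metabolism were read because many glycolytic genes share that response. Of 18 tested, 14 had the higher mean in Rac2-/-, with 4 higher in WT, and 0 passed limma without the block. At an unadjusted p under 0.05 there were 7 higher in Rac2-/- and 1 higher in WT, against 5.06% and 5.3% of all features. With the block 6 passed, all higher in Rac2-/-, against 3.32%, and 0 as higher in WT, where 2 had an unadjusted p under 0.05. Bnip3 alone passed with the block when arrays 3 and 4 were averaged, at a limma adjusted p of 0.0498, and the other 5 had values of 0.0768 to 0.149. Bnip3, a mitophagy receptor, was 1.74-fold higher in Rac2-/- (limma adjusted p 0.0543, with the block 0.00783). The prolyl hydroxylase Egln3, which marks HIF subunits for degradation, was 2.11-fold higher (0.435, with the block 0.0175). Mxi1, a partner of Max, was 1.35-fold higher without overlap of the groups (0.0588, with the block 0.0451). The prolyl hydroxylase Egln1 was 1.36-fold higher (0.0939, with the block 0.0452) and the mitochondrial adenylate kinase Ak4 2.41-fold higher (0.445, with the block 0.0162). Narf, a prelamin-binding protein, was 1.28-fold higher (0.903, with the block 0.0382). All cultures were grown at the same stated oxygen level, and the cause of these differences was not tested.

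**Figure D5:**
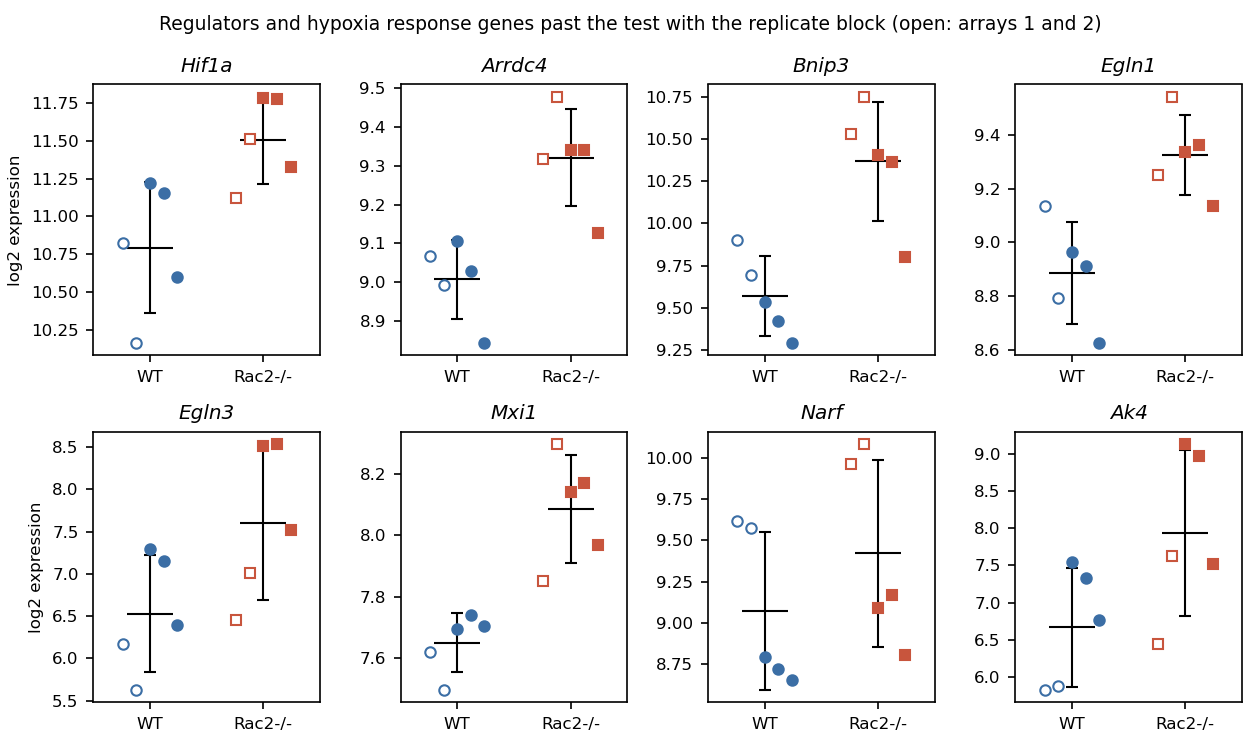
Log2 level of Hif1a, Arrdc4 and 6 hypoxia response genes in each array of WT and Rac2-/-, with mean and SD; open symbols mark arrays 1 and 2. For all 8 the Rac2-/- mean is the higher, and the groups overlap for 6 of them, with Arrdc4 and Mxi1 as the exceptions.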

How the data were processed

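BMDM RNA was hybridized to 10 Affymetrix mouse arrays, 5 WT and 5 Rac2-/-. The authors used RMA, and the table they deposited holds log2 levels of 34760 features. The log base is not written with them and was taken from their range of 1.69 to 13.7. The study's methods also name a filter, ComBat and limma, but no batches are named in the sources used here, and arrays 1 and 2 still differed from arrays 3 to 5. The number of arrays limits the precision.

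Features were ranked by their fourth-highest value and the top 27031 were tested (lowest kept 4.73) in R 4.3.3 with limma 3.58.1, without a block and with Benjamini-Hochberg adjustment at 0.05. Code was tested on simulated data. Symbols came from the platform annotation, updated through RefSeq identifiers, with 21640 features of 1 symbol, 1321 of several and 11799 of none. Promoters came from RefSeq, GRCm38.p6, where Slc2a3 was not matched. Isoenzyme pairs were compared by exact permutation. Named were every measured member, with each array's value for those past the test with or without the block, and genes of the other lists past the test; Ldha and other members with array values were added after their values were seen. Members, lists and array sets were chosen with earlier results of these data known, and the study had itself selected some of these genes on the same arrays.

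Whether replicate numbers pair the arrays was judged from the values alone. Residuals of arrays sharing a number correlated at 0.493 to 0.716, and these arrays were taken as paired for the block. Other numbers of the same set reached 0.476 to 0.724, so the values show the set but no pairing by number. Settings varied were the low-value filter, the block, a batch term, ComBat (its parametric form, written out in R), trended and robust variance, renewed quantile normalization, median centring, averaged features, fits within sets and leaving out each array. Chosen after seeing the data were own-chromosome features, leaving out Rac2-/- arrays 1 and 5 together, and averaging arrays 3 and 4.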

Additional observations from a re-analysis of the deposited data

Results flagged for a closer look

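Among 72 groups of 5 arrays, 6 held an array far from the other 4, by Dixon's test at 95%, where chance alone gives about 1 in 20 groups. All lay in Rac2-/-. Ldhb in array 1 was 7.41, with the others at 8.51 to 8.62. Pgls in array 1 was 7.89, with the others at 8.20 to 8.32. Fbp1, below the filter, was 4.35 in array 1 and 4.63 to 4.70 in the others. Ldha in array 2 was 12.40 against 12.10 to 12.18, and Slc16a1 in array 2 was 7.15 against 6.81 to 6.90. Slc2a3 in array 5 was 6.83 against 7.22 to 7.28.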

How the results depend on the processing

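Over all features, 514 passed limma, 1716 with the replicate block, 2524 with a batch term, 4386 after ComBat, 2 in arrays 1 and 2 alone, 1487 in arrays 3 to 5 alone, and 98 with arrays 3 and 4 averaged, or 320 when the block was added. Leaving out single arrays gave 245 to 625. Of the 35 genes, 2 passed, against 8 with the block, 14 with the batch term (13 higher in Rac2-/- and 1 in WT), 19 after ComBat (16 and 3), 0 in arrays 1 and 2 alone, 5 in arrays 3 to 5 alone (4 and 1), 3 without Rac2-/- arrays 1 and 5, and 1 with arrays 3 and 4 averaged, with or without the block. Leaving out single arrays gave 2 to 3, with Aldoc and Ldhb among them each time. Aldoc did not pass in arrays 1 and 2 alone (limma adjusted p 0.191) or arrays 3 to 5 alone (0.0545). Ldhb did not pass in arrays 1 and 2 alone (0.533) or with arrays 3 and 4 averaged (0.102, with the block 0.0683). Isoenzyme pairs past the exact permutation test numbered 5, against 7 after ComBat. With the block 9 passed, but not by an exact test within replicate numbers, which cannot reach 0.05 here. With arrays 3 and 4 averaged 0 passed, where a pass would need most of the 16 pairs at the smallest possible p. Leaving out single arrays gave 0 (without WT array 5) to 7 (without Rac2-/- array 5), and 3 without WT array 1, 2 or 4. A pass there depends on how many pairs reach the lowest p-values. A lost pass therefore does not show that a difference rests on the array left out.

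Differences near 0 changed sign. Hk1 was 0.055 with its features averaged, 0.074 in arrays 1 and 2 alone, 0.11 on the own-chromosome feature, and 0.0045 with arrays 3 and 4 averaged, with or without the block. Hk2 was 0.0029 with arrays 3 and 4 averaged, again with or without the block. Rpia was 0.12 in arrays 1 and 2 alone and Ldha -0.040 in arrays 3 to 5 alone. Without Rac2-/- arrays 1 and 5, Slc2a3 was -0.024, Eno2 0.080 and Ldha -0.027. Leaving out single arrays gave -0.040 to 0.24 for Slc2a3, -0.053 to 0.028 for Hk1, -0.25 to 0.19 for Hk2, -0.12 to 0.034 for Eno2, -0.034 to 0.073 for Ldha, -0.17 to 0.032 for Pgm2 and -0.10 to 0.0027 for Pgls. The cause was not tested. The fit after ComBat does not count the adjustment among its estimated terms, unlike the batch term. Beside the counts above, the block changed no other call among these genes.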
